A study of Mus musculus with 18 samples.

Results

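Globin genes and erythroid genes were followed in RNA and in H3K9ac, an acetylation of histone H3 found at active promoters, of whole mouse cortex at embryonic day E15.5. The 9 genes were matched by symbol among the 47729 Ensembl genes of the count files: the adult-type (fetal liver type) beta globins Hbb-bs and Hbb-bt, the alpha globins Hba-a1 and Hba-a2, the embryonic globins Hbb-y and Hba-x, and Alas2, Slc4a1 and Tfrc. They were grouped by gene family and role, with earlier results of these data known. One group of mice had been treated with TSA (trichostatin A, which inhibits histone deacetylases) and the other with vehicle. Both groups were BAF155 conditional knockouts (cKO) for a core subunit of the BAF chromatin remodelling complex, so TSA and Vehicle are compared on that genotype alone. RNA was measured in 4 TSA and 4 Vehicle libraries, and H3K9ac in 4 TSA and 4 Vehicle libraries. The sources used here name neither the Cre driver nor the dose and timing of TSA. They also do not say whether replicates were separate embryos, pools or repeat libraries, and p-values cover only the spread among these libraries, which may be technical. Libraries without the knockout were not analysed here, and the deletion itself was not checked.

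Red blood cells carry haemoglobin, a tetramer of alpha-type and beta-type globin chains that each hold a haem. In the mouse embryo, the first red cells arise in the yolk sac and make the embryonic chains of Hbb-y and Hba-x together with adult-type chains, and cells from the fetal liver, which make adult-type chains, later take over the circulation. Alas2 encodes the erythroid form of the first enzyme of haem synthesis. Slc4a1 encodes band 3, the anion exchanger and membrane anchor of the red cell. Tfrc encodes the transferrin receptor, which brings iron into red cell precursors and also into other dividing cells. Whole cortex includes blood vessels and the cells that travel in them.

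The bases just before the start sites of the globins and of Tfrc are shown because these genes differ in what lies there. The globins carry short motifs long known at globin promoters. The stretch shown for Tfrc carries none of those searched. RefSeq lists 2 promoters for Tfrc, and only the one further upstream was searched for motifs. The longest H3K9ac peak at Tfrc lies just after that upstream start. In all libraries but Vehicle 4 it also spans the second start, whose upstream bases were not searched. Each sequence is RefSeq's on build GRCm38.p6, 120 bases ending at the base before the start site, read 5′ to 3′ on the gene's own strand. Capitals mark 4 motifs on either strand: CACCC, which Krüppel-like factors bind, the CCAAT box, the TATAA box, and GATAA, which erythroid zinc finger factors bind.
Hbb-bs, minus strand, chr7:103827929-103828048: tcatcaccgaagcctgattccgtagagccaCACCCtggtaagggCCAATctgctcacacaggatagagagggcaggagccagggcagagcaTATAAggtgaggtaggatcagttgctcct
Hbb-bt, minus strand, chr7:103813924-103814043: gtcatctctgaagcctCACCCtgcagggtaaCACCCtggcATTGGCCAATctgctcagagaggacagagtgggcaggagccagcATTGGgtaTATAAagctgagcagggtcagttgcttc
Hbb-y, minus strand, chr7:103853208-103853327: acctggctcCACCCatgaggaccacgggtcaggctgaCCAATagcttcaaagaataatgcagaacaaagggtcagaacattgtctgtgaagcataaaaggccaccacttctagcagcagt
Hba-a1, plus strand, chr11:32283552-32283671: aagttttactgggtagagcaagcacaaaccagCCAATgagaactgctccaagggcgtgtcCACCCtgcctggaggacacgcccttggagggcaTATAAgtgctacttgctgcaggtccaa
Hba-x, plus strand, chr11:32276480-32276599: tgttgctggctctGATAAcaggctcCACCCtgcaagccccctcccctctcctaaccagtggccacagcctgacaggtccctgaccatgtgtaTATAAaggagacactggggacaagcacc
Tfrc, plus strand, chr16:32608776-32608895: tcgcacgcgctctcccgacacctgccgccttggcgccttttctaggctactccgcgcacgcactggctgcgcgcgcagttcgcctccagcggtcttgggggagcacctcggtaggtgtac
All 5 globin stretches held CACCC, against 31.7% of 32851 RefSeq windows of this length. CCAAT stood in 4 of these 5, the exception being Hba-x, against 21.3% of windows. TATAA stood in 4 of the 5, the exception being Hbb-y, against 11.8% of windows with it anywhere on either strand. In these 4 it lay 27 to 29 bases before the start site, a position not required of the windows. The motif GATAA was found in Hba-x, against 10.5% of windows. In Hbb-bt the letters ATTGGCCAAT are CCAAT on both strands, side by side, sharing no base. The stretch of Tfrc held none of these letters. Hbb-bs and Hbb-bt had 93 of 116 aligned bases in common (80.2%). Hba-a1 and Hba-a2 were identical over 117 of 117 aligned bases, their windows being offset by 3 bases, so the stretch of Hba-a2 is not repeated here. A motif match describes these letters and is no evidence of binding.

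Total counts were 6733415 to 20400727 in TSA and 12200426 to 15600340 in Vehicle. Values are CPM, read counts scaled to library totals adjusted by TMM. They are not divided by transcript length, so levels of different genes are not compared with each other. A gene was called when the edgeR quasi-likelihood test gave a Benjamini-Hochberg adjusted p under 0.05 over 15000 tested genes. All 9 genes passed the filter on low counts. The 6 globins took 0.0137 to 0.0162% of counts in TSA and 0.0183 to 0.0475% in Vehicle, and these ranges did not overlap. Some libraries stood apart. Vehicle 1 and Vehicle 4 held most mitochondrial reads, 2.86 and 3.36% of counts, against 1.48 to 1.71% in TSA and 1.6 and 2.0% in the other Vehicle libraries. Xist, which is transcribed from the inactive X of females, had 0.297, 1.44 and 0.490 CPM in TSA 1 to 3 and 2277 CPM in TSA 4, against 1788 to 3228 CPM in Vehicle. The sexes were unevenly spread over the groups. TSA 3 stood apart in the embryonic globins.

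Whether the tissue held erythroid RNA beyond globins was checked with genes that define red cell precursors. Gata1, the master transcription factor of the lineage, had 0 to 2 counts in TSA and 0 to 3 in Vehicle. Klf1, the Krüppel-like activator of adult beta globin, had 1 to 8 counts in TSA and 2 to 7 in Vehicle. Epb42, of the membrane skeleton, Rhag, of the Rhesus complex, and Hemgn, a nuclear protein of erythroblasts, had at most 4 counts in any library. These genes lay too low for the test, so the globins were measurable while genes of nucleated erythroid precursors were at or near 0.

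Both adult-type beta globins were lower in TSA. Hbb-bs (ENSMUSG00000052305, chromosome 7, 103826523 to 103827928), a beta chain gene of adult haemoglobin, had 89.6, 83.7, 64.9 and 88.7 CPM in TSA 1 to 4, against 156, 106, 177 and 260 CPM in Vehicle 1 to 4. All 4 TSA libraries lay below all 4 Vehicle libraries, and Vehicle 4 was the highest. The means were 81.7 ± 11.5 CPM in TSA and 174.7 ± 64.2 CPM in Vehicle (SD, n = 4 each). The edgeR fit gave a log2 fold change of −1.10 ± 0.23 (SE; adjusted p = 0.00403).

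Hbb-bt (ENSMUSG00000073940, chromosome 7, 103812524 to 103813923), the neighbouring beta chain gene, had 43.1, 32.7, 27.5 and 35.2 CPM in TSA 1 to 4, against 66.4, 44.9, 75.1 and 133 CPM in Vehicle 1 to 4. The groups again did not overlap, though TSA 1 and Vehicle 2 were close. The edgeR fit gave a log2 fold change of −1.22 ± 0.30 (SE; adjusted p = 0.0118). The pair resemble each other closely enough for reads to be shared out between them by the counting. Summed before the fit, the pair averaged 116.4 ± 17.3 CPM in TSA and 254.6 ± 101.7 CPM in Vehicle (SD, n = 4), a log2 fold change of −1.13 ± 0.24 (edgeR adjusted p = 0.00498). Within each library, Hbb-bt had 42.3 ± 4.1% of the reads of Hbb-bs in TSA and 44.7 ± 4.3% in Vehicle (SD, n = 4, exact permutation p = 0.457).

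Sex, mitochondrial reads, gene span and markers of other cells were set beside the fall of the beta pair. TSA 1 to 3 alone lie below 100 CPM of Xist, so a fit with Xist status at that limit (chosen after seeing the data) as a covariate sets TSA 4 alone against Vehicle. In that fit, with 1 library in the TSA arm, the log2 fold changes were −0.98 for Hbb-bs and −1.18 for Hbb-bt but neither passed (edgeR adjusted p = 0.138 and 0.151). Sex and TSA can therefore be told apart by TSA 4 only, and the part of sex in the fall was not tested further. Leaving out the mitochondria-rich Vehicle 1 and Vehicle 4 gave −0.80 and −0.81 (adjusted p = 0.0238 and 0.0236). All 6 globin genes span under 2 kb, and among the 477 tested genes that short, 113 fell and 12 rose, with a median log2 fold change of −0.33 against −0.01 over all tested genes. After a linear trend over span was removed from each library, Hbb-bs was at −0.77 and Hbb-bt at −0.85 (limma adjusted p = 0.00275 and 0.011). The part of other cells, whose markers are given with the marker lists, was not tested. In whole tissue, fewer red cells and less RNA per cell cannot be told apart.

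The alpha globins gave no call. Hba-a1 (ENSMUSG00000069919, chromosome 11, 32283672 to 32284486), an alpha chain gene, had 20.1, 14.1, 13.2 and 18.1 CPM in TSA 1 to 4, against 12.9, 11.9, 23.3 and 32.1 CPM in Vehicle 1 to 4. Hba-a2 (ENSMUSG00000069917, chromosome 11, 32296492 to 32297310), its near-identical copy, had 9.45, 11.5, 9.38 and 14.9 CPM in TSA 1 to 4, against 11.3, 7.86, 15.3 and 22.2 CPM in Vehicle 1 to 4. In both genes Vehicle 3 and Vehicle 4 lay above every TSA library, while Vehicle 1 and Vehicle 2 lay within or below the TSA range. The log2 fold changes were −0.31 ± 0.29 for Hba-a1 and −0.31 ± 0.27 for Hba-a2 (SE, edgeR adjusted p = 0.470 and 0.413). Both directions were unstable: without Vehicle 4 they were 0.01 and −0.02, and with the span trend removed 0.11 and 0.05. Summed, the pair had 27.7 ± 4.6 CPM in TSA and 34.2 ± 15.6 CPM in Vehicle (SD, n = 4), a log2 fold change of −0.31 ± 0.28 (edgeR adjusted p = 0.443). Hba-a2 had 70.4 ± 16.4% of the reads of Hba-a1 in TSA and 72.1 ± 10.5% in Vehicle (exact permutation p = 0.83).

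The balance of alpha to beta reads separated the groups. Reads of Hba-a1 plus Hba-a2 were 22.3, 21.9, 24.5 and 26.6% of those of Hbb-bs plus Hbb-bt in TSA 1 to 4, against 10.9, 13.0, 15.3 and 13.8% in Vehicle 1 to 4. Every TSA library lay above every Vehicle library, and the spread within each group was small, 23.8 ± 2.2% in TSA and 13.3 ± 1.8% in Vehicle (SD, n = 4). The mean log2 ratio was 0.85 higher in TSA. A two-sided exact permutation test gave p = 0.0286, the smallest that 4 against 4 libraries allow. Adjusted over the 5 globin ratios tested, p was 0.143, which does not pass. That is the lowest adjusted p possible when 1 of the 5 ratios alone reaches the smallest p. The adjusted test therefore could not have passed for this ratio alone and cannot decide here. The value ran from 0.76 to 0.92 when single libraries were left out, and was 0.75 without Vehicle 1 and Vehicle 4. A ratio within a library needs no scaling between libraries, but it shows unequal change only and not which chain changed.

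**Figure D1:**
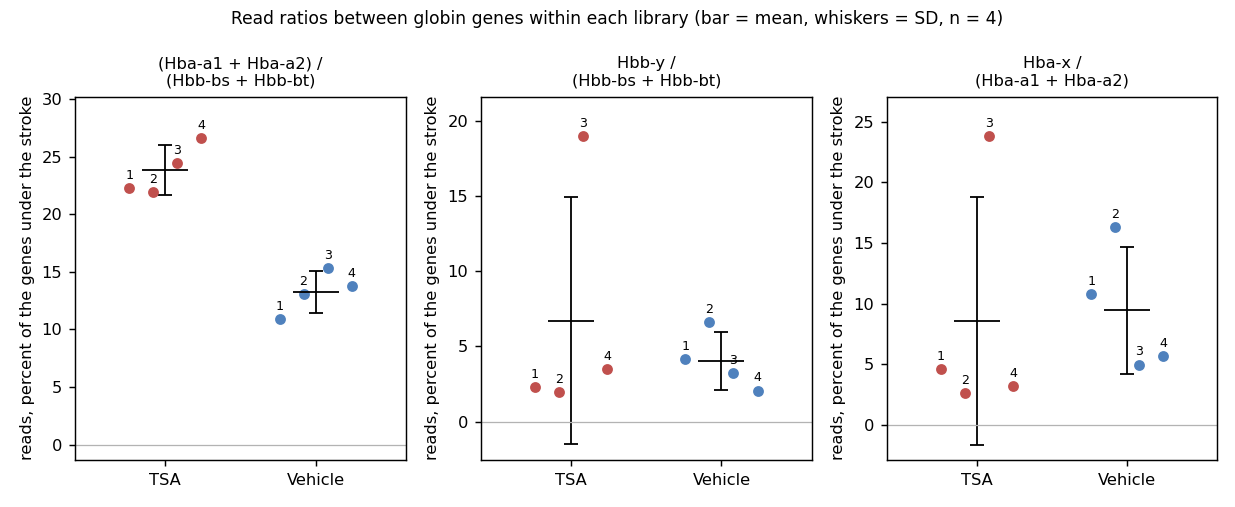
Reads of the first globin genes as a percentage of those of the second, per library, for alpha to adult-type beta (left), Hbb-y to adult-type beta (middle) and Hba-x to alpha (right), with TSA left of Vehicle. Points are libraries 1 to 4, bars are means and whiskers are SD. The left ratio is 21.9 to 26.6% in TSA and 10.9 to 15.3% in Vehicle, and in the other ratios TSA 3 stands alone at 19.0 and 23.8%.

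The embryonic globins followed another pattern, in which 1 library decided the outcome. Hbb-y (ENSMUSG00000052187, chromosome 7, 103851754 to 103853207), the embryonic beta chain gene of yolk sac red cells, had 3.05, 2.32, 17.5 and 4.38 CPM in TSA 1 to 4, against 9.21, 10.1, 8.13 and 8.15 CPM in Vehicle 1 to 4. The Vehicle libraries were close together, 3 TSA libraries lay below all of them, and TSA 3 lay above. In reads, TSA 3 had 355 against 20 to 70 in the other TSA libraries and 103 to 156 in Vehicle. The edgeR fit gave a log2 fold change of −0.31 ± 0.55 (SE; adjusted p = 0.715) with all libraries and −1.45 ± 0.23 (adjusted p = 0.000474) without TSA 3.

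Hba-x (ENSMUSG00000055609, chromosome 11, 32276600 to 32278116), the embryonic zeta-like alpha chain gene, had 1.37, 0.678, 5.38 and 1.06 CPM in TSA 1 to 4, against 2.61, 3.22, 1.93 and 3.09 CPM in Vehicle 1 to 4. The same 3 TSA libraries lay below all Vehicle libraries and TSA 3 above. These levels rest on 9 to 109 reads in TSA and 28 to 50 in Vehicle. The edgeR fit gave a log2 fold change of −0.27 ± 0.52 (SE; adjusted p = 0.735) with all libraries and −1.46 ± 0.34 (adjusted p = 0.00559) without TSA 3. With Xist status split at 1 CPM, which leaves TSA 2 and TSA 4 against Vehicle, it was −1.64 (adjusted p = 0.0288). Without TSA 2 it was 0.05 (adjusted p = 0.956).

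Set against the adult-type chains, the embryonic share was high in the same library. Hbb-y reads were 2.30, 1.99, 19.0 and 3.53% of those of the beta pair in TSA 1 to 4, against 4.15, 6.65, 3.23 and 2.07% in Vehicle 1 to 4. The mean log2 ratio was 0.19 higher in TSA (exact permutation p = 0.886), and without TSA 3 the difference was −0.53 (exact permutation p = 0.343). Hba-x reads were 4.64, 2.65, 23.8 and 3.22% of those of the alpha pair in TSA 1 to 4, against 10.8, 16.3, 4.99 and 5.69% in Vehicle 1 to 4. That difference was −0.57 (exact permutation p = 0.514). Without TSA 3 it was −1.26, with all 3 remaining TSA libraries below all 4 Vehicle libraries (exact permutation p = 0.0571, the smallest that 3 against 4 allow). TSA 3 had the highest total count of all libraries, and all 4 of its adult-type globins were the lowest of the TSA group.

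Among libraries of one group, the adult-type genes varied together. Over the 8 libraries, after subtraction of each group's mean log2 CPM, Pearson's r was 0.97 between Hbb-bs and Hbb-bt, 0.90 between Hbb-bs and Hba-a1 and 0.91 between Hbb-bs and Hba-a2. It was 0.94 between Hbb-y and Hba-x, or 0.52 without TSA 3, and −0.43 between Hbb-bs and Hbb-y, or −0.28 without TSA 3. Between Hbb-bt and Hba-x it was −0.22, and 0.15 without TSA 3. These are descriptions over libraries that also share depth and composition. The 10 genes most like Hbb-bs on this measure, among 12820 compared, had r from 0.978 (Smdt1) to 0.965 (Cyren). They were Smdt1, a regulator subunit of the mitochondrial calcium uniporter, Pebp1, Phb2, a prohibitin, Mcrip1, Mrps26, of the mitochondrial ribosome, Hbb-bt, Pla2g15, Drap1, the ribosomal protein gene Rps9 and Cyren. Apart from Hbb-bt, none of these genes is a globin or a known red cell marker. Of the 10, 8 were among the genes that fell in TSA, against 17.6% of all tested genes. They are the highest of 12820 correlations over only 8 libraries, and how high r would reach by chance was not tested.

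**Figure D2:**
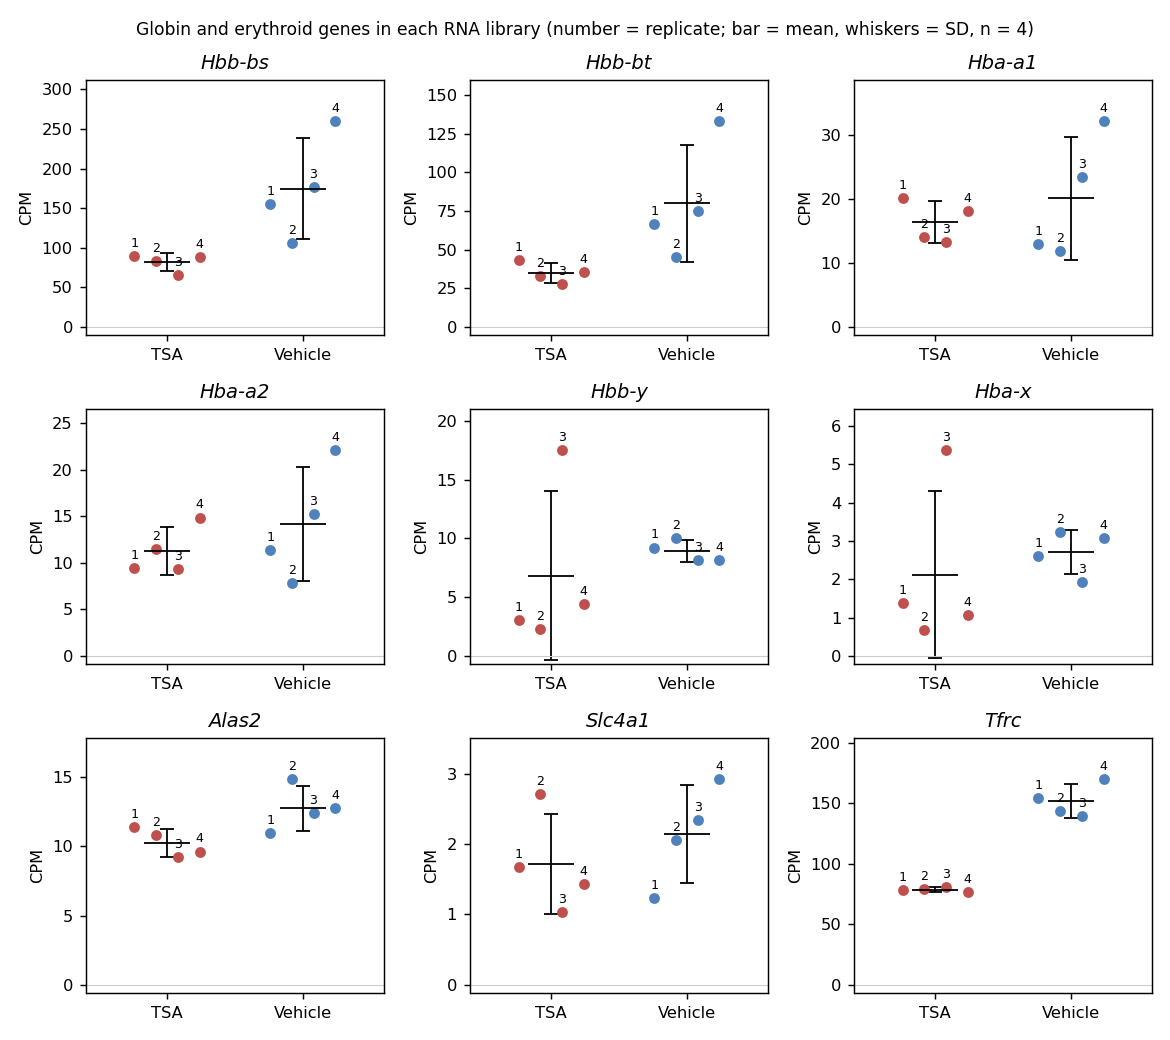
Level of each of the 9 genes (CPM, linear axes starting near 0) in every RNA library, TSA left of Vehicle, with replicate numbers beside the points, the mean as a bar and the SD as whiskers (n = 4). Hbb-bs, Hbb-bt and Tfrc do not overlap between groups, and TSA 3 stands above all other libraries for Hbb-y (17.5 CPM) and Hba-x (5.38 CPM).

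Of the 9 genes, 3 fell and 0 rose by the edgeR test (0 also rose at an unadjusted p under 0.05, with DESeq2 and with limma-voom), where 17.6% of all tested genes fell, 15.4% rose and 33% were called in either direction. The median log2 fold change was −0.31, against −0.01 over all tested genes. The ranges of TSA and Vehicle did not overlap for 3 of the 9 genes, against 32.3% of all tested genes. Without TSA 3, 5 of the 9 fell, beside 2415 of all tested genes in that fit (2640 with all libraries). The Xist fit that sets TSA 4 alone against Vehicle has 1 TSA library, so its calls are not counted here.

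**Figure D3:**
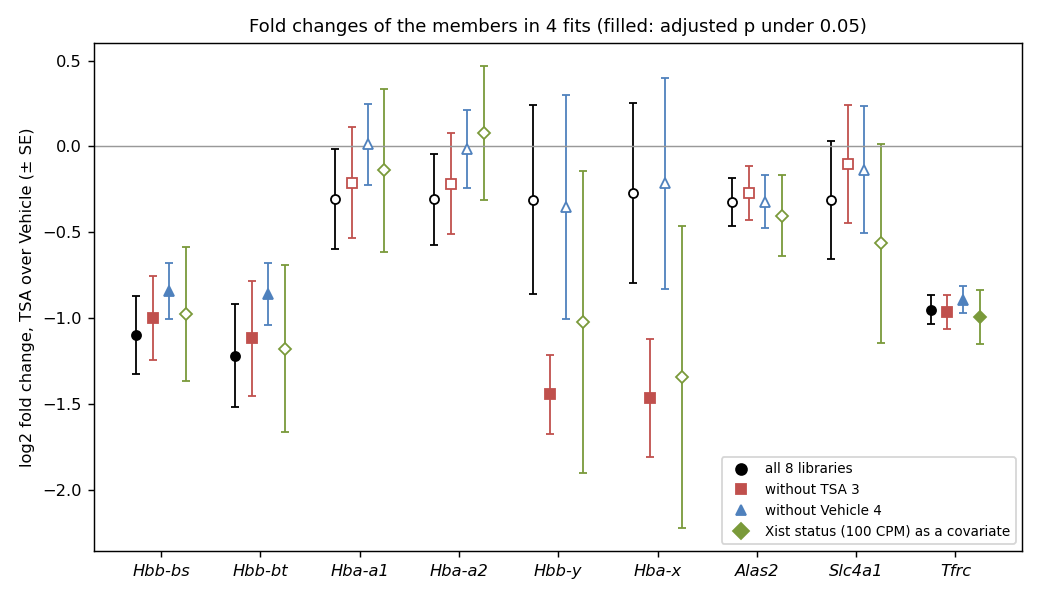
Log2 fold change of TSA over Vehicle with its SE for the 9 genes in 4 fits: all 8 libraries, without TSA 3, without Vehicle 4, and with Xist status at 100 CPM as a covariate, which sets TSA 4 alone against Vehicle. Filled symbols passed an adjusted p under 0.05. Apart from the Xist fit, Tfrc, Hbb-bs and Hbb-bt pass in every fit, and Hbb-y and Hba-x only without TSA 3. In the Xist fit Tfrc passes and the beta pair does not, but with its single TSA library this decides neither.

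Alas2 (ENSMUSG00000025270, chromosome X, 150547417 to 150570622), which supplies haem synthesis in red cell precursors, had 11.4, 10.8, 9.23 and 9.63 CPM in TSA 1 to 4, against 10.9, 14.9, 12.4 and 12.7 CPM in Vehicle 1 to 4. The groups overlapped through TSA 1 and Vehicle 1. The edgeR fit gave a log2 fold change of −0.32 ± 0.14 (SE; adjusted p = 0.0935), which does not pass. Within groups, r of Alas2 to the 6 globins ran from −0.46 (Hbb-y) to 0.04 (Hba-a1) over the 8 libraries, and without TSA 3 from −0.48 (Hba-a2) to 0.34 (Hba-x).

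In the list of 12 other haem synthesis genes, 3 fell and the other 9 were not called, against 17.6% of all tested genes that fell. The list's median was −0.20. Tmem14c, which imports protoporphyrinogen into mitochondria and is needed in erythroid cells, had 26.3 to 27.0 CPM in TSA and 37.4 to 51.8 CPM in Vehicle, a change of −0.72 ± 0.11 on the log2 scale (SE; edgeR adjusted p = 0.000239). Uros, uroporphyrinogen III synthase, changed by −0.67 ± 0.14 (adjusted p = 0.00279). Alas1, the housekeeping form of the first enzyme, had 40.3 ± 3.0 CPM in TSA and 38.3 ± 3.0 CPM in Vehicle (SD, n = 4), a log2 fold change of 0.08 ± 0.10 (adjusted p = 0.569). Fech, which inserts the iron, had −0.13 ± 0.10 (adjusted p = 0.358).

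Slc4a1 (ENSMUSG00000006574, chromosome 11, 102348820 to 102365281) had 1.68, 2.71, 1.04 and 1.44 CPM in TSA 1 to 4, against 1.24, 2.06, 2.34 and 2.93 CPM in Vehicle 1 to 4. The groups overlapped over most of their range, and the values rest on 11 to 48 reads in TSA and 18 to 37 in Vehicle. The edgeR fit gave a log2 fold change of −0.31 ± 0.34 (SE; adjusted p = 0.531), which does not pass. Of 27 other red cell membrane, enzyme and chaperone genes found, 15 were tested, with a median of 0.11. Of these, 2 rose (13.3%, against 15.4% of all tested genes) and 3 fell (20%, against 17.6%). Epb41, the protein 4.1 gene, rose by 0.56 ± 0.12 (adjusted p = 0.00282) at 355.6 ± 3.1 CPM in TSA and 241.5 ± 47.8 CPM in Vehicle, and Ank1, the ankyrin gene, rose by 0.58 ± 0.15 (adjusted p = 0.00723). Both are also transcribed in neurons. Bpgm, which makes the haemoglobin regulator bisphosphoglycerate, changed by −0.63 ± 0.11 (adjusted p = 0.00071). Car2, a carbonic anhydrase, changed by −0.72 ± 0.22 (adjusted p = 0.0194), and Blvrb, biliverdin reductase B, by −0.70 ± 0.24 (adjusted p = 0.0400). The falls of Car2 and Blvrb lost their calls without Vehicle 4 (adjusted p = 0.0703 and 0.0946).

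Tfrc varied little among TSA libraries and was lower in all of them. Tfrc (ENSMUSG00000022797, chromosome 16, 32608896 to 32632794) had 78.2, 78.7, 80.8 and 76.2 CPM in TSA 1 to 4, against 154, 144, 139 and 170 CPM in Vehicle 1 to 4. The TSA libraries lay close together, and the highest of them was far below the lowest Vehicle library. The means were 78.5 ± 1.9 CPM in TSA and 151.7 ± 13.7 CPM in Vehicle (SD, n = 4), a change of −0.95 ± 0.09 on the log2 scale (SE; edgeR adjusted p = 9.63e-06). The call held in all 19 other settings, with log2 fold changes from −0.99 to −0.85. These settings include the Xist fit that sets TSA 4 alone against Vehicle, where the call rests on 1 TSA library and decides little. Within groups r was 0.54 between Tfrc and Hbb-bs over the 8 libraries, and 0.13 between Tfrc and Hbb-y. Without TSA 3 these were 0.68 and −0.25.

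Of 17 tested genes of iron uptake, storage and sensing, 4 fell (23.5%, against 17.6% of all tested genes) and 1 rose (5.88%, against 15.4%), with a median of −0.04. Fth1, the heavy chain of the iron store ferritin, had 191 to 206 CPM in TSA and 257 to 292 CPM in Vehicle, a change of −0.46 ± 0.08 on the log2 scale (SE; edgeR adjusted p = 0.0007). Ftl1, the light chain, changed by −0.45 ± 0.10 (adjusted p = 0.00326), and by −0.21 with the span trend removed (limma adjusted p = 0.0846). Fbxl5, the iron sensor that marks IRP proteins for destruction, had 95.3 to 105 CPM in TSA and 139 to 177 CPM in Vehicle, −0.62 ± 0.09 (adjusted p = 0.000275). Slc40a1, ferroportin, the iron exporter, changed by −0.69 ± 0.17 (adjusted p = 0.00739). Aco1, which encodes IRP1, a protein that binds iron-responsive elements in the RNAs of Tfrc and the ferritins, rose by 0.36 ± 0.11 (adjusted p = 0.0174) and lost its call in 5 of 19 other settings, among them without TSA 1 (adjusted p = 0.0664). Ireb2, which encodes IRP2, had −0.04 ± 0.09 (adjusted p = 0.763), and Slc11a2, the transporter that releases iron from endosomes, −0.02 ± 0.11 (adjusted p = 0.922).

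**Figure D4:**
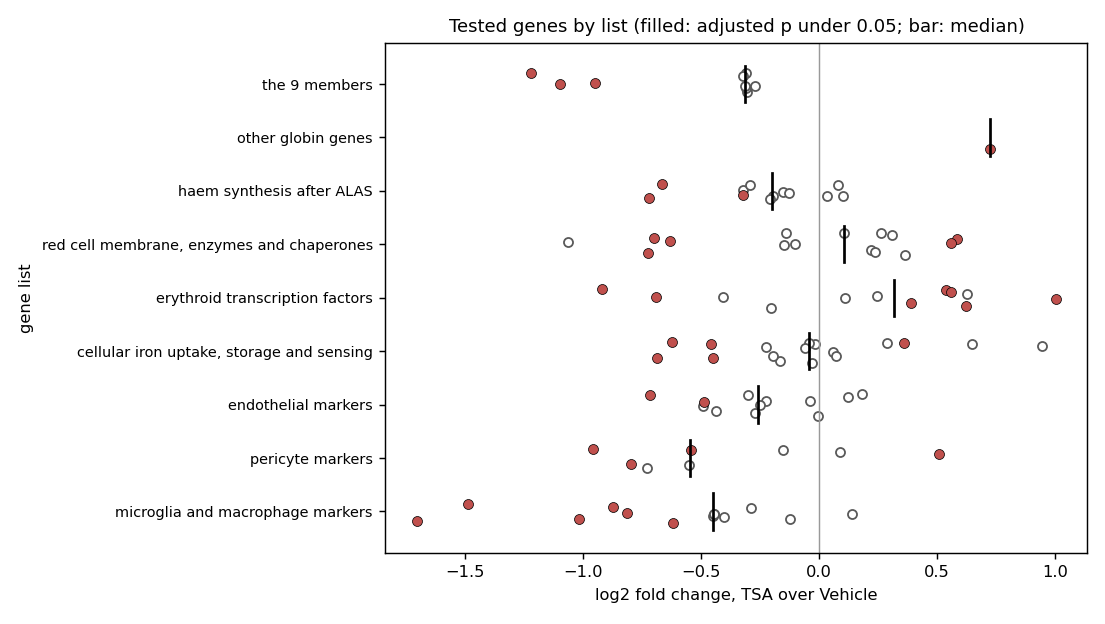
Log2 fold change of TSA over Vehicle for every tested gene of the 9-gene group and of 8 other lists (the platelet and cortex lists are not drawn), with filled points past an adjusted p under 0.05 and a bar at each median. The globins Hbb-bt (−1.22) and Hbb-bs (−1.10) and Tfrc (−0.95) lie left of the others in the top row. In the transcription factor list 5 of 12 tested genes rose (41.7%, against 15.4% of all tested genes).

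Among 8 other globin genes 1 was tested. Cygb, cytoglobin, a globin of fibroblasts, pericytes and some neurons, had 19.5, 20.2, 16.5 and 20.9 CPM in TSA 1 to 4, against 11.2, 9.93, 13.0 and 12.5 CPM in Vehicle 1 to 4. It rose by 0.72 ± 0.13 (SE, edgeR adjusted p = 0.000865), opposite in direction to the beta pair, and all TSA libraries lay above all Vehicle libraries. Hbb-bh1, the other embryonic beta-type gene, had 0 to 6 reads in TSA and 0 to 7 in Vehicle. Hbb-bh2 had none in any library. The theta globins Hbq1a and Hbq1b had 0 to 8 reads in TSA and 0 to 9 in Vehicle.

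Of 12 tested erythroid transcription factor genes 5 rose (41.7%, against 15.4% of all tested genes) and 2 fell (16.7%, against 17.6%). The list's median was 0.32. Bcl11a and Sox6 are neural as well as erythroid regulators. Bcl11a, the repressor of embryonic-type globins, rose by 0.39 ± 0.10 (edgeR adjusted p = 0.00977) at 449.0 ± 38.5 CPM in TSA and 343.1 ± 36.7 CPM in Vehicle (SD, n = 4), and Sox6, its partner at the globin genes, rose by 0.54 ± 0.12 (adjusted p = 0.00403). Klf3, a Krüppel-like repressor, rose by 1.0 ± 0.11 (adjusted p = 4.61e-05) and Cbfa2t3 by 0.56 ± 0.12 (adjusted p = 0.00312). Lmo2, a bridging factor of blood and endothelial cells, had 6.94 to 10.2 CPM in TSA and 11.6 to 20.1 CPM in Vehicle, −0.92 ± 0.18 (adjusted p = 0.00168). E2f2, a cell cycle factor of maturing erythroblasts, changed by −0.69 ± 0.16 (adjusted p = 0.00419).

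Markers of other cells were read beside the 17.6% of all tested genes that fell and the 15.4% that rose. Of 12 endothelial markers 2 fell, a share (16.7%) near that background. They were Cldn5, a tight junction gene (−0.71 ± 0.14, edgeR adjusted p = 0.00177), and Esam (−0.49 ± 0.14, adjusted p = 0.0135), and the list's summed level was 164 to 203 CPM in TSA and 154.6 to 245 CPM in Vehicle. Of 8 pericyte markers 3 fell, Rgs5 (−0.96 ± 0.14), Kcnj8 (−0.80 ± 0.19) and Vtn (−0.54 ± 0.20), and Cspg4 rose by 0.51 ± 0.15. Their summed level was 133 to 190 CPM in TSA and 185 to 262 CPM in Vehicle. Of 13 microglia and macrophage markers 6 fell, Lyz2, Aif1, Tyrobp, C1qb, Fcer1g and Trem2, and the summed level was 40.6 to 57.0 CPM in TSA and 57.4 to 77.6 CPM in Vehicle. Of 10 platelet and megakaryocyte markers 4 were tested, and the one nearest to a call was Gp1bb at 0.46 ± 0.17 (adjusted p = 0.0503). The defining platelet genes Pf4 and Ppbp had at most 4 reads in any library. Of 11 cortex markers 9 rose, including Tbr1, Neurod2, Fezf2 and Bcl11b, and the summed level was 3278 to 3870 CPM in TSA and 1946 to 2800 CPM in Vehicle. The part of these shifts in the fall of the beta pair and Tfrc was not tested.

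H3K9ac peaks were then looked up at the start sites. The authors called 32248 to 61217 peaks in TSA and 22668 to 43645 in Vehicle libraries. Of 11056 tested genes with a RefSeq start site, 70% had a peak within 1 kb in all 8 libraries and 5.52% in none. Tfrc had one in 8 of 8 libraries. Hbb-bs, Hbb-bt, Hbb-y, Hba-x and Alas2 had one in 0 of 4 TSA and 0 of 4 Vehicle libraries. Hba-a1 had one in 1 of 4 TSA and 0 of 4 Vehicle libraries, and Hba-a2 in 1 of 4 TSA and 1 of 4 Vehicle libraries. Slc4a1, whose start site was searched at both gene ends, had one in 0 of 4 TSA and 1 of 4 Vehicle libraries. The groups differed by at most 1 library at any of these genes (two-sided Fisher's exact p = 1 for each).

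At Tfrc the longest peak lay just downstream of the upstream start site in each list, and spanned the second start site in all but Vehicle 4. It spanned chr16:32608991-32609785 in TSA 1 and chr16:32608947-32609531 in Vehicle 1. By fold enrichment, which is the authors' own value for each peak, it stood above 74.9, 82.2, 76.5 and 68.6% of its list in TSA 1 to 4 and above 75.8, 76.5, 84.0 and 4.17% in Vehicle 1 to 4. Vehicle 4, the shortest list, had a second, shorter peak nearby that stood above 30.7% of its list. Peak heights were not compared across libraries.

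**Figure D5:**
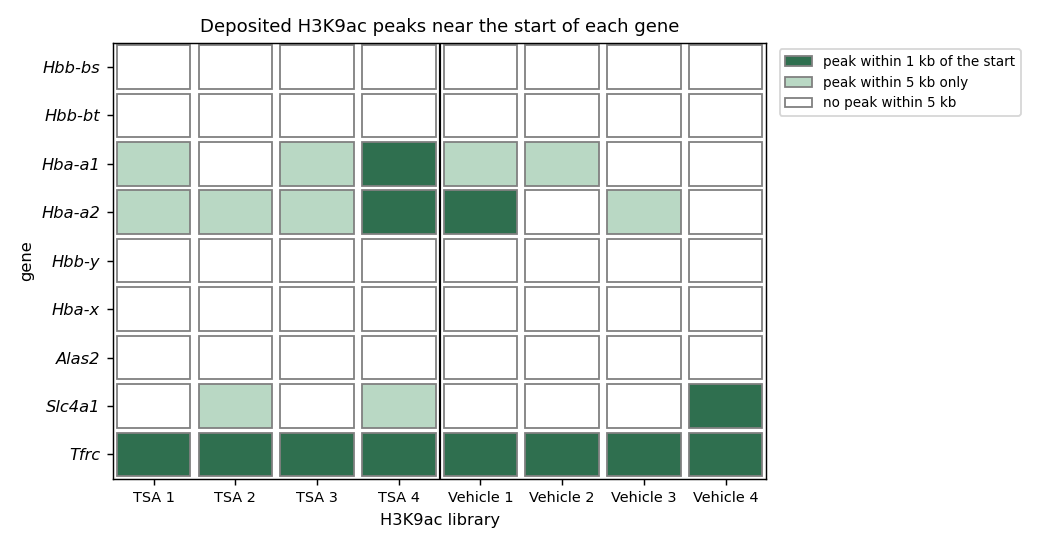
Presence of a deposited H3K9ac peak near the start of each of the 9 genes in each library, TSA left of Vehicle: dark within 1 kb, light within 5 kb only, white for none within 5 kb. Tfrc is dark in all 8 libraries, and the beta-type globins, Hba-x and Alas2 are white throughout.

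The beta and alpha globin clusters lay in different surroundings. No library had a peak anywhere in chr7:102687358-105399184, a stretch of 2712 kb around the beta cluster that holds 198 RefSeq genes, of which 144 are olfactory receptor genes by symbol. The nearest peak to Hbb-bs was 1140571 to 1385642 bp away. The alpha cluster had peaks on both sides and some within it. Nprl3, the neighbour whose introns hold the alpha globin enhancers in mouse, had a peak over its start, chr11:32266728-32268436, in 4 of 4 TSA and 4 of 4 Vehicle libraries. A region in the body of Nprl3, chr11:32236166-32237011, had a peak in 4 of 4 TSA and 3 of 4 Vehicle libraries. The start of Mpg, chr11:32226388-32227163, had one in all 8.

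Inside and beside the alpha cluster, peaks were small and found in some libraries only. At Hbq1b, chr11:32286946-32287379, 3 of 4 TSA and 2 of 4 Vehicle libraries had a peak. At Hbq1a, chr11:32300105-32300608, 4 of 4 TSA and 1 of 4 Vehicle libraries had one, a difference noticed in the data and not tested. The peak over Hba-a2, chr11:32296759-32297159, was seen in TSA 4 and Vehicle 1, and that after Hba-a1, chr11:32284560-32284714, in TSA 4. TSA 4 had the longest list, 61217 peaks. RNA and H3K9ac libraries with the same number are not stated to come from the same tissue, so these peaks are not matched to the RNA of single libraries.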

How the data were processed

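RNA and H3K9ac were measured in whole cortex of BAF155 cKO mice at E15.5. RNA files hold raw read counts per gene, which the authors deposited without normalization; build mm10 and SAMtools come from the submitters' processing notes, and the aligner, counter and annotation are not given there. The library kit named in the labels' protocols is unstranded. Of 47729 genes 47224 had a symbol, and 5 lines for unassigned reads held 0. Peaks were called per library with MACS2 2.1.0.20140616 against 1 input at a q limit of 0.1, per the file headers. The headers give the same 18937878 input tags for TSA and Vehicle libraries, although the series holds an input for each group. Peaks of both groups thus appear to be called against the same input, and its effect on the peak counts was not tested. The deposited pileup signal, the fold enrichment ratio and the −log10 q-value are the authors' values, and served to order or select peaks inside one list.

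Counts were fitted with edgeR 4.0.16 (R 4.3.3; filterByExpr, TMM, robust quasi-likelihood test, no covariate), tested beforehand on simulated counts. SE is the size of a change over the root of F. CPM use TMM totals. Ratios used raw counts with 0.5 added for logs and two-sided exact permutation tests. No replicates agreed within sampling noise (chi-square per degree of freedom 3.12 to 36.0). Start sites, spans and sequences are RefSeq's (GRCm38.p6), and 144 of 145 list symbols were found, Ahsp being the one not matched. Genes were named by rule: all 9 members, up to 6 called genes per list with the smallest p, described haem, iron and globin genes, the 10 most like Hbb-bs, and neighbours of the globin clusters with peaks. Gp1bb, Pf4, Ppbp and the precursor genes near 0 were named after their values were seen. The members and lists were chosen with earlier results of these data known. Alternatives were RLE factors, DESeq2 1.42.0, limma-voom 3.58.1, no filter, a replicate block, lane, Xist status, copies summed, span trend removed, and libraries left out. Some genes of the lists are counted in them but not reported here by name.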

Additional observations from a re-analysis of the deposited data

Results flagged for a closer look

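In groups of 4 libraries, a value was singled out when its gap to the nearest other library took more than about 0.83 of the group's range, which chance gives in about 1 group in 20. Of 124 groups examined, 10 met this. TSA 3 gave 6 of them. It was high for Hbb-y, at 17.5 CPM against 2.32 to 4.38 CPM in the other TSA libraries, and for Hba-x, at 5.38 CPM against 0.678 to 1.37 CPM. It was also high for Hbb-y as a share of the beta pair, 19.0% against 1.99 to 3.53%, and for Hba-x as a share of the alpha pair, 23.8% against 2.65 to 4.64%. It was low in the summed level of the other globin genes, nearly all of it Cygb, 18.3 CPM against 21.2 to 21.7 CPM, and of the microglia and macrophage markers, 40.6 CPM against 54.7 to 57.0 CPM.

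In Vehicle 4, Hbb-bt had 51.2% of the reads of Hbb-bs, against 42.3 to 42.7% in the other Vehicle libraries. In Vehicle 1, Hba-a2 had 87.8% of the reads of Hba-a1, against 65.5 to 69.0%. Tyrobp was at 4.75 CPM in 1 Vehicle library, against 3.31 to 3.51 CPM in the others, and Lyz2 at 7.60 CPM, against 4.0 to 4.61 CPM.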

How the results depend on the processing

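Tfrc was called in all 19 other settings, Hbb-bs in all but Xist status at 100 CPM (adjusted p = 0.138), and Hbb-bt in all but that one (0.151) and no filter (0.0707). With Xist status at 1 CPM, which leaves TSA 2 and TSA 4 against Vehicle, 1412 of all genes rose and 1727 fell (2314 and 2640 otherwise) and 14 genes of the other lists fell (23 otherwise). There Hba-x was at −1.64 (adjusted p = 0.0288). At 100 CPM, chosen after seeing the data, TSA 4 alone stands against Vehicle, is assumed to vary like the other libraries, and lost calls reflect an arm of 1 library as well as sex. There 757 rose and 818 fell, 1 member fell, and in the other lists 11 rose (19 otherwise) and 7 fell. Calls that fell ranged over left-out libraries from 3 to 5 among the members, the 5 without TSA 3, and from 15 (without Vehicle 4) to 24 in the other lists. Directions that turned were those of uncalled values. Hba-a2 was at 0.078 with Xist at 100 CPM and 0.055 with the span trend removed, Hba-a1 at 0.11 with the span trend removed and −0.49 to 0.011 over left-out libraries, and Hba-x at −1.46 to 0.046. Alas1 was at −0.0060 without Vehicle 1 and Vehicle 4. Without that pair, the difference in the Hbb-y share was −0.14 and in Hba-a2 to Hba-a1 0.061, and over left-out libraries they ran from −0.53 to 0.55 and from −0.14 to 0.12. Slc4a1 had 1 more TSA than Vehicle library with a peak, in place of 1 fewer, within 5 kb and in the gene body. Apart from the fewer TSA libraries in the Xist fits, the cause was not tested. Of 703 values of 37 other named genes, 621 kept direction and call, 81 lost a call and 1 turned. DESeq2 gave no adjusted p for Hbb-y, and with copies summed no count of member calls was made.

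Replicate numbers are shared by the groups. Same-numbered libraries correlated at 0.10, 0.09, 0.07 and 0.11. Pairs with different numbers correlated at −0.21 to 0.15, most of them negative. All same-numbered values were positive, though each lies inside that range. Whether these libraries pair was not tested. With a replicate block, 2598 genes rose and 2744 fell, the same 3 members were called, and the alpha-to-beta ratio had an exact p of 0.125, the smallest that 4 pairs allow.

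Hba-x and Slc4a1 rest on 9 to 109 reads per library. Lanes hold 2 or 3 libraries each, too few for tests within a lane; with lane as a covariate Hbb-bs was at −0.97 (adjusted p = 0.000126) and Hba-a1 at −0.06.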

Other observations

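The genes that varied most like Hbb-y among libraries of one group were looked up after its values were seen, by the same measure as for Hbb-bs. The first 4 were S100pbp, Zic2, Ebf3 and Ebf2, with r of 0.99, 0.98, 0.98 and 0.96 over the 8 libraries and 0.86, 0.88, 0.81 and 0.70 without TSA 3. Zic2, a zinc finger factor of the dorsal midline and meninges, had 31.6, 28.2, 58.9 and 35.4 CPM in TSA 1 to 4, against 27.1, 31.2, 24.6 and 26.4 CPM in Vehicle 1 to 4. Ebf2, a factor of Cajal-Retzius cells, had 3.05, 2.43, 11.6 and 3.94 CPM in TSA 1 to 4, against 4.68, 6.77, 6.75 and 4.91 CPM in Vehicle 1 to 4. Ebf3, a related factor, had 50.9 CPM in TSA 3, against 24.5 to 31.5 CPM in the other TSA libraries. TSA 3 was highest in its group for these genes. They were picked for varying like Hbb-y, which was itself far highest in TSA 3. Their high values there follow from that choice and are no separate evidence that the library differs. What sets TSA 3 apart was not tested.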
